A study of Rattus norvegicus with 20 samples.

Results

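The 7 genes of the immunoproteasome and of antigen presentation, Psmb8, Psmb9, Psmb10, B2m, Tap1, Tap2 and Cd74, were followed in the liver of food-restricted rats. They were taken as the probe sets annotated to exactly one of these genes. This gave 9 probe sets for 7 genes, out of 10411 genes named on the array, and all 7 genes were among the 7056 named genes tested. B2m and Tap1 each had a second probe set, and each gene is represented by its brighter one.

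The animals were male Wistar rats, put on the diets at an age of 6 weeks. They were given the full amount of diet or 5, 10, 20 or 30% less for 1 week or for 1 month, and every animal, controls included, had a 16 h fast before sampling. Liver RNA from 5 rats made 1 pool per condition, and each of the 10 pools was hybridised to 2 Affymetrix arrays, which makes 20 arrays and 1 pool per condition. Labelled ages were 6 weeks in the short and 9 weeks in the long experiment. The first equals the age at the start of the diets and the second is above it. The time point that the labels refer to is not stated. Duration, age and any difference in handling between the durations therefore cannot be told apart.

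The proteasome is the barrel-shaped protease that cuts ubiquitin-tagged proteins into peptides. In cells exposed to interferon gamma, its catalytic subunits are replaced in newly built particles, with Psmb8 in the place of Psmb5, Psmb9 in that of Psmb6 and Psmb10 in that of Psmb7. The resulting immunoproteasome yields peptides suited to MHC class I molecules. Tap1 and Tap2 form the transporter that brings those peptides into the endoplasmic reticulum, and B2m is the light chain that every classical class I molecule needs to reach the cell surface. Cd74, the invariant chain, belongs to the other branch: it guards the groove of MHC class II molecules in antigen-presenting cells, which in liver include Kupffer cells and dendritic cells.

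Psmb8 and Psmb9 had lower signals at higher restriction, and they were the only members to pass a test in the comparisons over restriction. Psmb8 lay 1.62-fold lower over 30 percentage points of restriction and Psmb9 1.63-fold lower. Psmb10, Tap1 and Tap2 had slopes of -0.40 to -0.56 on the log2 scale and did not pass. B2m had a slope of -0.08 and Cd74 one of 0.06.

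Promoter windows of 300 bases, 250 before and 50 after the transcription start, were available from RefSeq for all 7 members (build GRCr8). They were searched on both strands for the core of the interferon-stimulated response element, GAAANNGAA, which matched in 5 of the 7 members and in 3251 of 33469 promoters (9.71%). Matches stood in Psmb8, Psmb10, Tap1, Tap2 and B2m, and none stood in the windows of Psmb9 and Cd74. An NF-kappa B motif, GGGACTTTC, matched in Tap1 and B2m, against 109 promoters in all (0.326%), and the gamma-activated sequence TTCNNNGAA matched in Psmb8 alone, against 2970 promoters (8.87%). The motifs were chosen after the sequences were seen, so these shares describe the windows and test nothing about the members. None of the 3 motifs matched in the windows of Psmb5, Psmb6 and Psmb7, the subunits that the immunoproteasome replaces. For each motif, most promoters in all had no match either.

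The 2 genes that fell are shown first, Psmb8 from 250 bases before its start to 6 bases after it, where the response element core spans the start on the opposite strand, and Psmb9 over the 250 bases before its start. Matches to the response element core and to the NF-kappa B motif are in capitals, 5′ to 3′ on the strand of the gene, and Psmb9 has none.
Psmb8, chr20:4657026-4657281, minus strand: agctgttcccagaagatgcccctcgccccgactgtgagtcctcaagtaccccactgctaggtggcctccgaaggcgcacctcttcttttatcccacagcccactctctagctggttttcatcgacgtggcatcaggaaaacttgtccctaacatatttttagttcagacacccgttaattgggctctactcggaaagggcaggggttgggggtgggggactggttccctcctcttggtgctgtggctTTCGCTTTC
Psmb9, chr20:4668750-4668999, plus strand: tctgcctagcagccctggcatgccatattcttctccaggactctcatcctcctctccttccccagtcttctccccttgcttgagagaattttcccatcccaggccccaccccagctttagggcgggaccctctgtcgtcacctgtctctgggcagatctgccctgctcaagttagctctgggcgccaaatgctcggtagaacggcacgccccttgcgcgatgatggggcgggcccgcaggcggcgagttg

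The next stretches are the parts of the other promoters that hold matches. Psmb10 has the core at 73, at 67 (overlapping the first) and at 17 bases before its start, Tap1 at 120 bases on the opposite strand with the NF-kappa B motif at 55, Tap2 at 41, and B2m at 150 with the NF-kappa B motif on the opposite strand at 136.
Psmb10, chr19:50743293-50743377, minus strand: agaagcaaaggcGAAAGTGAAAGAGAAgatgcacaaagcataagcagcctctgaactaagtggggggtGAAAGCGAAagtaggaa
Tap1, chr20:4668578-4668675, minus strand: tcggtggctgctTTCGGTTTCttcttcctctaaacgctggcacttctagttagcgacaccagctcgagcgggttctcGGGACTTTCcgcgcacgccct
Tap2, chr20:4652317-4652349, minus strand: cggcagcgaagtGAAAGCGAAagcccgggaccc
B2m, chr3:129549168-129549214, plus strand: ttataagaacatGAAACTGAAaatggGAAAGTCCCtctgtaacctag
Tap2, Psmb8, Tap1 and Psmb9 are 4 consecutive entries of the RefSeq gene table. Tap1 and Psmb9 point away from each other with 457 bases between their starts, so the Tap1 match lies 337 bases before the start of Psmb9, outside the window searched for that gene. Of the 5 members with a response element match only Psmb8 passed the dose trend, and Psmb9 passed without one.

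Psmb8 fell with restriction in the fit over both durations. Its log2 signals on the 2 arrays at 1 week were 8.01 and 7.90 in the control pool, 8.02 and 8.08 at 5%, 7.68 and 7.82 at 10%, 8.01 and 7.98 at 20%, and 7.33 and 7.38 at 30%. At 1 month they were 8.37 and 8.23 in the control pool, 8.48 and 8.23 at 5%, 8.13 and 7.92 at 10%, 7.82 and 7.67 at 20%, and 7.56 and 7.45 at 30%. At 1 month the levels from 5% on followed the order of the diet and the arrays of 10, 20 and 30% did not overlap. At 1 week the 30% pool stood apart below all others, while the 20% pool overlapped the control. The dose slope, the change in log2 signal over 30 percentage points with duration in the model, was -0.70 ± 0.139 (SE, n = 10 pools; limma adjusted p = 0.0201).

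Psmb9 fell by a like amount and with a different shape. At 1 week its log2 signals were 6.62 and 6.55 in the control pool, 6.16 and 6.30 at 5%, 6.02 and 6.02 at 10%, 6.25 and 5.90 at 20%, and 5.61 and 5.84 at 30%. At 1 month they were 6.78 and 6.56 in the control pool, 6.61 and 6.47 at 5%, 6.16 and 5.84 at 10%, 5.66 and 6.10 at 20%, and 5.88 and 6.12 at 30%. Both arrays of every restricted pool at 1 week were below both control arrays, and so were those of the 10, 20 and 30% pools at 1 month. The 10, 20 and 30% pools at 1 month overlapped each other. The dose slope was -0.71 ± 0.161 (SE, n = 10 pools; limma adjusted p = 0.0340).

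**Figure D1:**
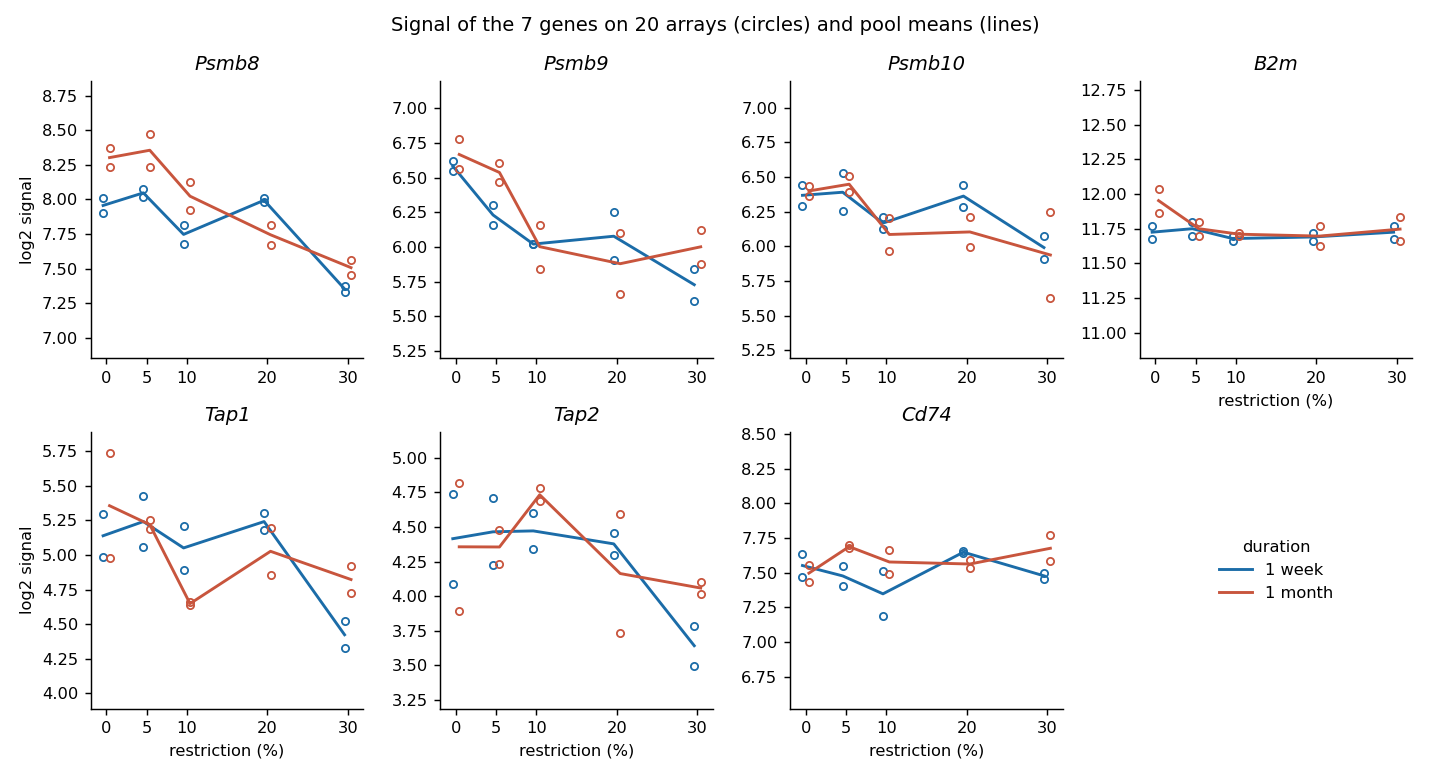
Log2 signal (vertical axis, 2 log2 units in every panel) against percent restriction for the 7 genes, with 1 circle per array, lines through the pool means, and blue for 1 week and red for 1 month. Psmb8 and Psmb9 run downward, with Psmb8 pool means from 8.36 to 7.35 and Psmb9 pool means from 6.67 to 5.73, while B2m and Cd74 stay nearly level.

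Psmb10, which sits with them in the immunoproteasome, had pool means at 1 week of 6.37 in the control, 6.39 at 5%, 6.17 at 10%, 6.36 at 20% and 5.99 at 30%. At 1 month they were 6.40, 6.45, 6.09, 6.10 and 5.94 in the same order. The 30% pool was the lowest at each duration, but its arrays at 1 month, 6.25 and 5.63, lay far apart. The slope of -0.40 ± 0.127 (SE, n = 10 pools) did not pass (limma adjusted p = 0.105). It passed with the arrays numbered 2 alone (-0.64, adjusted p = 0.0468), and with the arrays numbered 1 alone it was -0.16.

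For the calls of Psmb8 and Psmb9, single pools mattered. Psmb8 no longer passed without the 30% pool at 1 week (adjusted p = 0.109), the control at 1 month (0.0711) or the 30% pool at 1 month (0.0635), with limma adjusted p from 0.000201 to 0.628 over its 21 alternatives. Psmb9 no longer passed without the control (0.110), 5% (0.0561), 20% (0.0544) or 30% pool (0.122) at 1 week, without the control (0.123) or 20% pool (0.0659) at 1 month, or with the arrays numbered 2 alone (0.171). Its limma adjusted p ran from 0.00404 to 0.586. The slope of each was below 0 in 21 of 21 alternatives. Signals as deposited, median centring, a fit with no variance trend and either RNA quality ratio as a covariate also ended both calls.

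**Figure D2:**
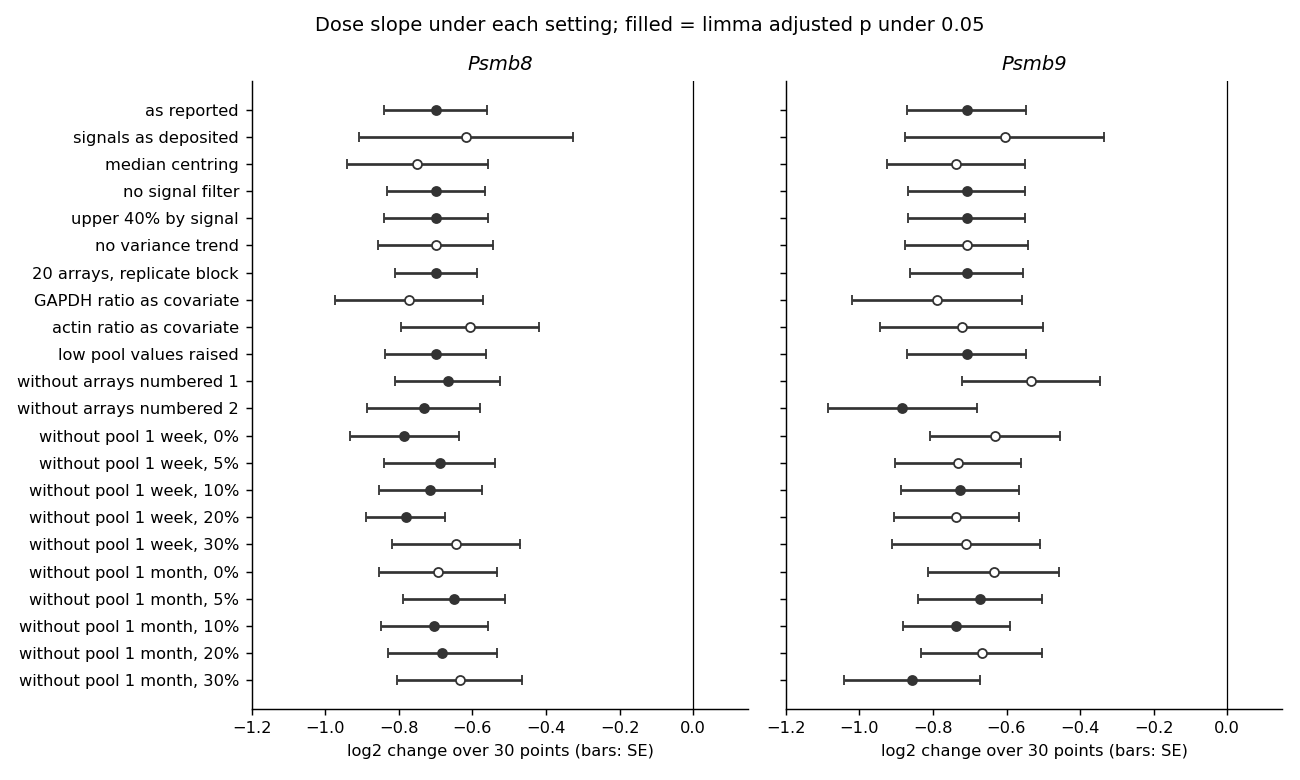
Dose slopes of Psmb8 and Psmb9 (log2 change over 30 percentage points, bars SE) under each setting of the analysis, with filled points where the limma adjusted p was under 0.05. Every point lies below 0, from -0.79 to -0.61 for Psmb8 and from -0.88 to -0.53 for Psmb9, and 13 of 21 alternatives kept the Psmb8 call against 9 of 21 for Psmb9.

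The transporter subunits had weaker signals and more array spread. Tap1 pool means at 1 week were 5.14 in the control, 5.24 at 5%, 5.05 at 10%, 5.24 at 20% and 4.42 at 30%. At 1 month they were 5.35, 5.22, 4.65, 5.03 and 4.82. At 1 week both arrays of the 30% pool lay below every other array, whereas at 1 month the 10% pool was the lowest. The Tap1 slope of -0.52 ± 0.210 (SE, n = 10 pools) did not pass (limma adjusted p = 0.202), and it was -0.28 without the 30% pool at 1 week and -0.70 with the arrays numbered 1 alone. Its second probe set, with a mean signal of 4.31 units, was under the signal filter, and its slope there was 0.20, the opposite direction.

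Tap2 pool means at 1 week were 4.42 in the control, 4.46 at 5%, 4.47 at 10%, 4.38 at 20% and 3.64 at 30%. At 1 month they were 4.36, 4.36, 4.73, 4.16 and 4.06. The 30% pool was the lowest at each duration, apart from its neighbour at 1 week and overlapping it at 1 month. The control arrays alone spanned 4.09 to 4.74 at 1 week and 3.90 to 4.82 at 1 month, so at 1 month the lower value at 30% was within the spread of the control arrays. The slope was -0.56 ± 0.235 (SE, n = 10 pools; limma adjusted p = 0.223), and it was -0.30 without the 30% pool at 1 week and -0.72 with the arrays numbered 1 alone. The lowest mean signal tested was 3.54 on the log2 scale, just below the lowest Tap2 pool.

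B2m was bright in every pool and nearly flat. Its pool means lay between 11.68 and 11.95, and the control at 1 month, with arrays of 12.04 and 11.87, was the one pool above the others at its duration. The slope was -0.08 ± 0.0664 (SE, n = 10 pools; limma adjusted p = 0.548), and it turned to 0.04 with the signals as deposited, which moved the median of all probe sets to 0.11. The second B2m probe set, with pool means between 8.56 and 8.95, had a slope of -0.17 ± 0.109 (SE, n = 10 pools; limma adjusted p = 0.437). Quantile normalisation gives all arrays the same set of values, so at this brightness, the 99.7th percentile of mean signal, few distinct values are possible and some arrays had equal ones.

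Cd74 had no common direction. Its pool means at 1 week were 7.55 in the control, 7.48 at 5%, 7.35 at 10%, 7.65 at 20% and 7.48 at 30%. At 1 month they were 7.50, 7.69, 7.58, 7.56 and 7.68. The highest pool was that of 20% at 1 week and that of 5% at 1 month, and most neighbouring pools overlapped. The slope was 0.06 ± 0.104 (SE, n = 10 pools; limma adjusted p = 0.816; 95% interval -0.16 to 0.29), and it turned to -0.01 with the GAPDH ratio as a covariate and to -0.02 with the arrays numbered 2 alone.

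As a list, 2 of the 7 members fell over the dose trend and 0 rose, where 187 of 9520 tested probe sets (1.96%) fell and 171 (1.8%) rose. The median slope of the members was -0.52, against 0.00 over all tested probe sets, and 6 of 7 members had a slope below 0, against 49.4% of all. The members were chosen with earlier results of these data known, so these values describe the list and test nothing about it. With other scalings the counts over all probe sets were 116 lower and 27 higher (median centring) and 40 lower and 18 higher (signals as deposited), and the signals as deposited moved the median of all slopes to 0.11. Since no condition had a repeated pool, the scatter of the 10 pools around the fitted line is what the p-values are based on, and spread between rats enters it only as averaged over the 5 rats of a pool.

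**Figure D3:**
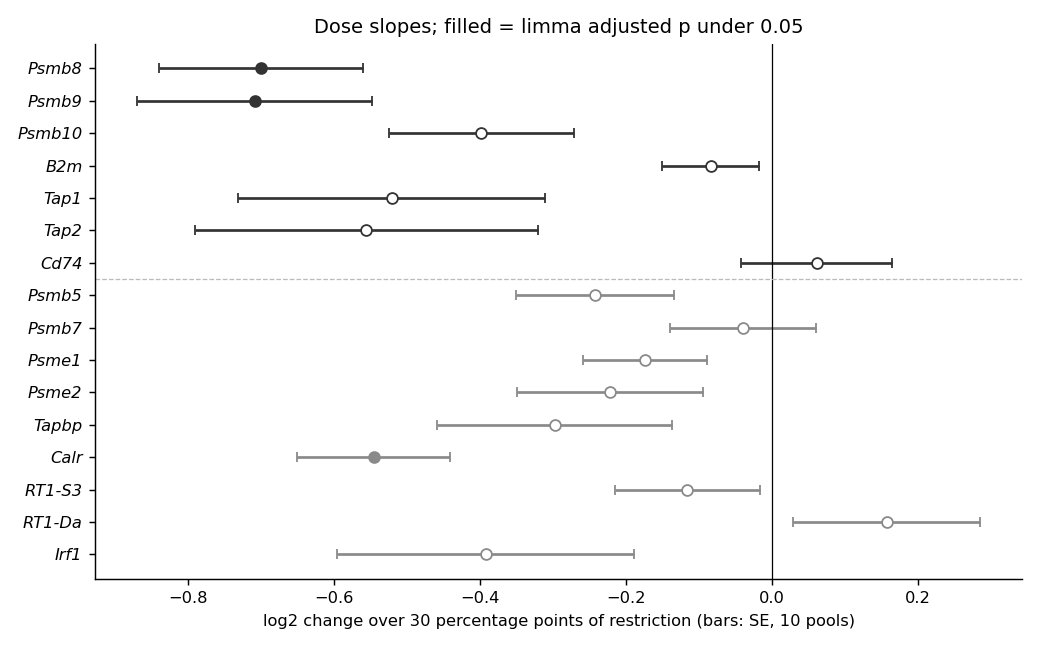
Dose slopes (log2 change over 30 percentage points, bars SE over 10 pools) of the 7 members above the dashed line and of 9 related genes below it, with filled points where the limma adjusted p was under 0.05. Psmb8, Psmb9 and Calr are the filled points, and Psmb7 at -0.04, B2m at -0.08 and Cd74 at 0.06 lie nearest to 0.

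The question of how much restriction goes with a difference was addressed level by level, with 4 contrasts that share the 2 control pools. At 30%, Psmb8 differed from control by -0.70 ± 0.148 (SE, 2 pools against 2; limma adjusted p = 0.0272) and Psmb9 by -0.76 ± 0.161 (adjusted p = 0.0272), so 2 of 7 members fell against 2.08% of tested probe sets. The difference at 30% was -0.42 for Psmb10, -0.62 for Tap1 and -0.53 for Tap2, and these did not pass (limma adjusted p = 0.139, 0.166 and 0.349). Tap1 ran from -0.88 without the 30% pool at 1 month to -0.37 without that at 1 week. With the arrays numbered 1 and 2 alone, Psmb10 differed by -0.16 and -0.67 and Tap2 by -0.98 and -0.09. B2m differed by -0.10 and Cd74 by 0.05. Both calls at 30% were lost without any one of the 4 pools compared, the 2 controls and the 2 pools at 30% (adjusted p from 0.0792 to 0.226 for Psmb8 and from 0.0567 to 0.219 for Psmb9). Without the control at 1 month B2m differed by 0.00 and Cd74 by -0.04.

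At 5, 10 and 20% limma called 0 of 7 members, where 0.179, 0.851 and 1.64% of tested probe sets fell. At an unadjusted p under 0.05 the counts were 0, 1 and 1, each time Psmb9, where 9.83, 14.1 and 16.4% of tested probe sets stood under it. Psmb9 was -0.61 at 10% (limma adjusted p = 0.0847) and -0.65 at 20% (adjusted p = 0.0581). With the signals as deposited these were -0.24 and -0.23, against -0.66 at 30%, in a scaling that moved the median of all probe sets to 0.35, 0.41 and 0.10 at those levels. Psmb8 was -0.24 at 10% and -0.26 at 20%. At 5% Psmb8 differed by 0.07 and Psmb9 by -0.24. With all restricted pools set against the controls as 1 step, limma called 0 of 7 members (2.11% of tested probe sets fell), and 2 members, Psmb9 and B2m, had an unadjusted p under 0.05, as had 18.9% of tested probe sets. The step was -0.57 ± 0.166 for Psmb9 (SE, n = 10 pools; limma adjusted p = 0.0696), -0.28 for Psmb8 (adjusted p = 0.496), -0.20 for Psmb10 and -0.12 for B2m (adjusted p = 0.256). Without the control at 1 month the step was -0.17 for Psmb8 and -0.01 for B2m. With the arrays numbered 1 and 2 alone it was -0.08 and -0.32 for Psmb10. With the signals as deposited the step turned to 0.08 for Psmb10 and to 0.11 for B2m, both below the median of all probe sets in that scaling, 0.25, and it was -0.05 for Psmb8 and -0.30 for Psmb9. Psmb9 passed the step without the 5% pool at 1 week (adjusted p = 0.0376) or at 1 month (0.0214).

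Each restricted pool was also set against the control pool of its own duration by size alone, counting members at least 0.5 apart on the log2 scale with both arrays on one side. At 1 week, 0 members were lower at 5%, 1 at 10%, 1 at 20% and 4 at 30%. At 1 month the counts were 0, 2, 2 and 3. Over all tested probe sets the lower shares were 7.47, 7.63, 8.41 and 10.4% at 1 week and 9.55, 9.54, 8.57 and 8.51% at 1 month. Psmb9 was counted in 6 of the 8 pools, all but those at 5%. At 30% the members counted at both durations were Psmb8, Psmb9 and Tap1, with Tap2 added at 1 week. No member was counted as higher in any pool, where 7.42, 9.13, 9.7 and 10.3% of tested probe sets were higher at 1 week and 11, 10.8, 10.7 and 10.4% at 1 month. There is no test behind this rule, since each side is 1 pool.

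The 2 durations were then fitted with a slope each. Psmb8 had a slope of -0.52 ± 0.191 at 1 week (SE, n = 5 pools in a fit of 10; limma adjusted p = 0.219) and of -0.88 ± 0.191 at 1 month (adjusted p = 0.148). Psmb9 had -0.70 ± 0.237 at 1 week (limma adjusted p = 0.182) and -0.71 ± 0.237 at 1 month (adjusted p = 0.317). No member passed in either duration, where 0.42% of tested probe sets fell at 1 week and 0.0315% at 1 month, and at an unadjusted p under 0.05 there were 2 members at 1 week and 3 at 1 month, against 15.9 and 10.5% of tested probe sets. The Psmb8 slope at 1 week rested on the 30% pool, and without that pool it was -0.02. The Psmb9 slope at 1 month was -1.26 without the 30% pool at 1 month, -1.03 with the arrays numbered 1 alone and -0.40 with the arrays numbered 2 alone. The slopes differed between durations, 1 month minus 1 week, by -0.36 ± 0.270 for Psmb8 (limma adjusted p = 0.931; 95% interval -0.95 to 0.24) and by -0.01 ± 0.335 for Psmb9 (adjusted p = 0.999; 95% interval -0.75 to 0.72). The Psmb8 difference ran from -0.85 without the 30% pool at 1 week to -0.21 without the 20% pool at 1 week, and the Psmb9 difference from -0.56 without the 30% pool at 1 month to 0.27 with the arrays numbered 2 alone. For this difference limma called 0 members and 0 of 9520 probe sets, with 0 members and 525 probe sets at an unadjusted p under 0.05. The fit over 20 arrays with the array number as a replicate block and the pool as a random block called Psmb8 at 1 week (adjusted p = 0.0419) and at 1 month (adjusted p = 0.00341), where that fit called 2.83 and 0.935% of tested probe sets as lower. In that fit the 2 technical arrays of a pool count as separate values. It called more probe sets in general, with 392 lower over the dose trend against 187 in the fit over pools.

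Between the durations no member passed. Limma called 0 of 7 between 1 month and 1 week, with 0 at an unadjusted p under 0.05, where 32 probe sets (0.336%) passed in either direction. Psmb8 differed by 0.17 ± 0.100 (SE, n = 10 pools; limma adjusted p = 0.599), with control pools of 7.96 at 1 week and 8.30 at 1 month. The other differences ran from -0.06 for Psmb10 to 0.10 for Cd74.

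Psmb5 and Psmb7, the catalytic subunits of the standard proteasome, were set beside the subunits that replace them. No probe set names Psmb6 alone, and Psmb6 was not analysed here. Psmb5 had a slope of -0.24 ± 0.108 (SE, n = 10 pools; limma adjusted p = 0.246) and Psmb7 one of -0.04 ± 0.0996 (adjusted p = 0.880), which turned to 0.03 with the signals as deposited, below the 0.11 of all probe sets there. Without single pools or the arrays of 1 number the Psmb5 slope ran from -0.35 to -0.13. The summed signal of Psmb5 and Psmb7 was 945 to 988 in the control pools and 836 to 935 in the restricted pools. The Psmb8 slope minus the Psmb5 slope was -0.46 (exact permutation test over pools within duration, two-sided p = 0.0602) and the Psmb10 slope minus the Psmb7 slope was -0.36 (exact p = 0.0699). Both pairs were chosen after their values were seen, both adjusted values are 0.0699, and neither difference passed. The Psmb8 difference stayed between -0.37 and -0.66 when each pool was left out, with exact p between 0.00694 and 0.193. It passed without the control at 1 week (exact p = 0.00694) or the 20% pool at 1 week (exact p = 0.0479). The Psmb10 difference passed without the 20% pool at 1 week (exact p = 0.0188) and with the arrays numbered 2 alone (-0.58, exact p = 0.0201), and was -0.13 with the arrays numbered 1 alone (exact p = 0.520).

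Of 29 other subunits and assembly factors of the proteasome that were tested, 1 fell and 0 rose over the dose trend. That compares with 1.96% lower and 1.8% higher among all tested probe sets, and the median slope of the 29 was -0.12. Slopes below 0 numbered 24 of 29, against 49.4% of all tested probe sets. At an unadjusted p under 0.05 there were 9 lower and 0 higher, where 19% of all tested probe sets stood under it in either direction. The summed signal of the 29 was 7690 to 7862 in the control pools and 6824 to 7621 in the restricted pools. The one called by limma was Psma1, a subunit of the outer ring, at -0.53 ± 0.127 (SE, n = 10 pools; limma adjusted p = 0.0412), and 7 of its 21 alternatives kept the call. Of the 10 pools, only the 5, 10 and 30% pools at 1 month could be left out without losing it. In the restriction step 1 of 29 fell, Psmd9, an assembly chaperone of the regulatory particle, at -0.65 (limma adjusted p = 0.0170), where 2.11% of tested probe sets fell. Psme1 and Psme2, the interferon-inducible activator that caps the proteasome, had slopes of -0.17 ± 0.0844 and -0.22 ± 0.128 and did not pass (limma adjusted p = 0.293 and 0.388). Without single pools or the arrays of 1 number they ran from -0.21 to -0.13 and from -0.34 to -0.11. The fit over 20 arrays with the replicate block, which takes technical arrays as separate values, called 6 of the 29 as lower, against 4.12% of tested probe sets.

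Downstream of the transporter, 2 of 6 tested genes of peptide loading and class I folding fell over the dose trend, against 1.96% of tested probe sets. Calr, the chaperone calreticulin of the loading complex, fell by 0.55 on the log2 scale (SE 0.105, limma adjusted p = 0.0170), and Hspa5, the general chaperone of the endoplasmic reticulum, by 0.57 (SE 0.118, adjusted p = 0.0235). The Calr call was lost without the control or the 30% pool at 1 week or the control at 1 month, and the Hspa5 call without the control, 5, 20 or 30% pool at 1 week or the control at 1 month, with limma adjusted p of at most 0.694 and 0.598 over all alternatives. Tapbp, or tapasin, which bridges the transporter and the class I molecule, had a slope of -0.30 ± 0.161 (SE, n = 10 pools; adjusted p = 0.352).

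Of 9 tested class I heavy chain and related genes, limma called 0, and the median slope was -0.24. At an unadjusted p under 0.05 there were 1 lower and 1 higher, where 19% of all tested probe sets stood under it in the dose trend. Probes of the class I genes, which are closely related, may hybridise to each other's transcripts. RT1-S3 had a slope of -0.12 ± 0.0992 (SE, n = 10 pools; limma adjusted p = 0.584). The class II chains and processing genes beside Cd74 gave 0 of 11 calls and a median slope of 0.07. At an unadjusted p under 0.05 there were 0 lower and 1 higher, against the same 19%. RT1-Da had a slope of 0.16 and RT1-Db1 one of -0.11.

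The interferon pathway list, receptors, signalling factors and induced genes together, gave 0 of 33 calls by limma. At an unadjusted p under 0.05 there were 3 lower and 1 higher, where 19% of all tested probe sets stood under it. The list's median slope was -0.12, and 22 of 33 slopes were below 0. Irf1, a factor that binds response elements of this kind, had a slope of -0.39 ± 0.203 (SE, n = 10 pools; limma adjusted p = 0.328). It ran from -0.57 to -0.19 without single pools or the arrays of 1 number. Cd163 was not analysed here.

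**Figure D4:**
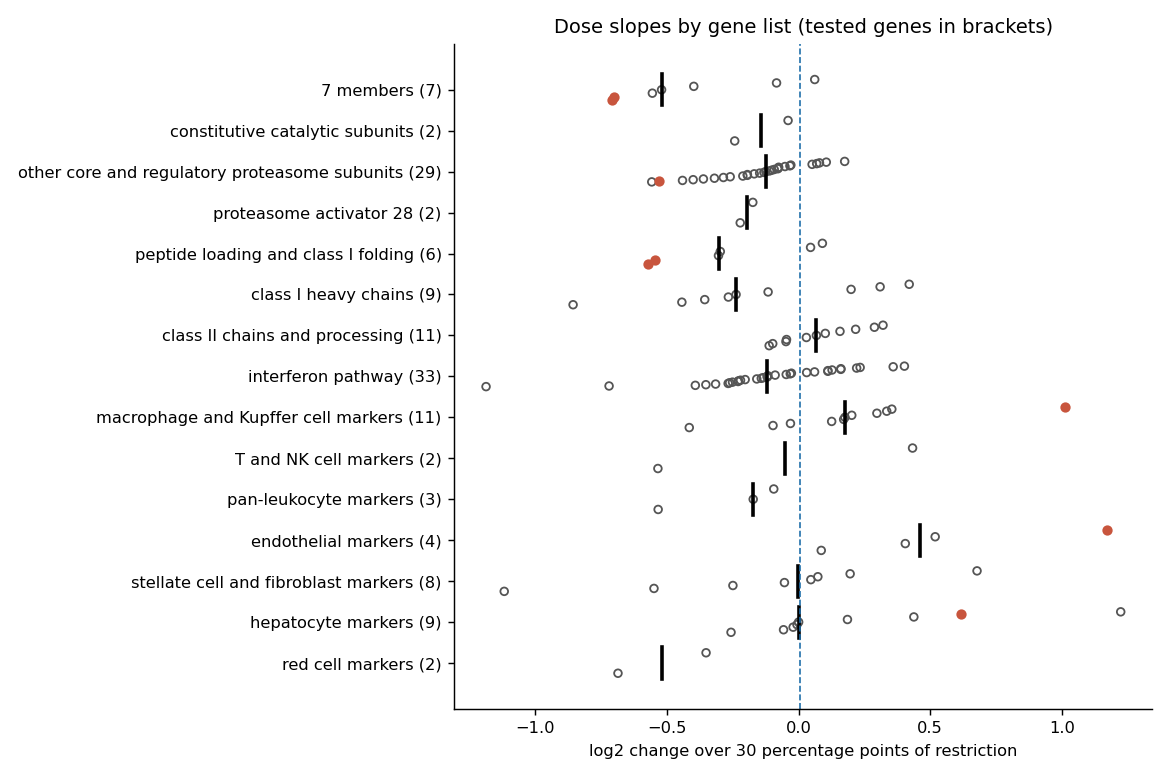
Dose slopes (log2 change over 30 percentage points) of the tested genes of each list, with red points for limma adjusted p under 0.05, black bars for list medians and the dashed line for the median of all tested probe sets. The members' median of -0.52 lies level with that of the 2 red cell markers, also -0.52. It lies left of peptide loading and class I folding at -0.30 and the class I heavy chains at -0.24. Further right are the other proteasome subunits at -0.12, the interferon list at -0.12 and the class II list at 0.07.

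Liver is a mixture of cells, and in pooled tissue RNA fewer cells of a type and less RNA per cell cannot be told apart. The summed signal of the 3 tested pan-leukocyte markers was 74.4 to 87.3 in the control pools, 68.0 to 78.5 in the restricted pools and 68.0 to 69.8 at 30%. All 3 had slopes below 0. Limma called 0 of them, and unadjusted p-values under 0.05 numbered 0, where 19% of all tested probe sets had one. Ptprc, which marks all leukocytes, was under the signal filter, as were all listed B cell, dendritic cell and neutrophil genes on the array and 13 of 15 T and NK cell genes. The 11 tested macrophage and Kupffer cell markers had a median slope of 0.18, with 1 higher, the lipopolysaccharide co-receptor Cd14 (1.01 ± 0.168, SE, n = 10 pools; limma adjusted p = 0.0101). The Cd14 call was kept in 18 of 21 alternatives. It was lost with the signals as deposited (limma adjusted p = 0.0935) and with the GAPDH or actin ratio as a covariate (0.163 and 0.0855). Over the dose trend 1.8% of tested probe sets rose. The summed signal of the 11 markers was 1127 to 1209 in the control pools, 982 to 1234 in the restricted pools and 1165 to 1234 at 30%. Cd68 had a slope of 0.35, the Kupffer cell lectin Clec4f one of 0.17, Csf1r, a growth factor receptor of these cells, -0.03, and Fcer1g, a signalling chain of Fc receptors, -0.10. Lyz2, a lysozyme of macrophages, had -0.42 ± 0.141 (SE, n = 10 pools; limma adjusted p = 0.128). Csf1r, Fcer1g and Lyz2 were the 3 of 11 markers with a slope below 0, against 49.4% of all tested probe sets, and the other markers had slopes above 0. Of the 11 markers, 1 was lower and 1 higher at an unadjusted p under 0.05, against 19% of all tested probe sets. The part of these cells in the Psmb8 and Psmb9 result was not tested.

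The 4 tested endothelial markers had a higher summed signal in the restricted pools, with 196 to 237 in the control pools, 254 to 329 in the restricted pools and 326 to 329 at 30%. Pecam1, the dimmest of the 4, did not follow the sum. Its dose slope was 0.09, its restriction step -0.11 and its difference at 30% -0.27, and limma called none of these. Of 4 such markers 3 were higher at an unadjusted p under 0.05, where 19% of all tested probe sets stood under it in either direction. After adjustment 1 rose over the dose trend, Ehd3 (1.17, limma adjusted p = 0.0135), against 1.8% of tested probe sets. That call was lost without the 30% pool at 1 week (0.0677), with the arrays numbered 1 or 2 alone (0.0719 and 0.123) and with the GAPDH or actin ratio as a covariate (0.139 and 0.0603), while Kdr, a receptor for vascular growth factor, rose in the restriction step (0.60, adjusted p = 0.00899). The part of these cells in the Psmb8 and Psmb9 result was not tested either. Of 9 hepatocyte markers 4 were higher and 1 lower at an unadjusted p under 0.05, against the same 19%. After adjustment 1 rose, Cyp2e1, a microsomal oxidase (0.62, limma adjusted p = 0.0347), against the same 1.8%. The Cyp2e1 call was lost under either other scaling, with no signal filter, no variance trend or either quality ratio, with the arrays numbered 1 alone, and without the 5, 20 or 30% pool at 1 week or the control, 20 or 30% pool at 1 month. Both tested red cell markers were lower at an unadjusted p under 0.05 without passing. Of 8 stellate cell and fibroblast markers, of the 1 tested bile duct marker and of the 2 tested T and NK cell genes limma called 0, and unadjusted p-values under 0.05 numbered 2, 1 and 0.

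RNA quality and brightness varied among arrays. The GAPDH 3′ to 5′ ratio of the pools ran from 1.30 to 1.61 and the actin ratio from 2.23 to 3.07, and both lowest values were 30% pools. With the GAPDH ratio in the model the slopes were -0.77 for Psmb8 and -0.79 for Psmb9 (limma adjusted p = 0.139 and 0.172), and with the actin ratio -0.61 and -0.72 (adjusted p = 0.157 and 0.156). The trimmed mean of the deposited signals ran from 38.8 to 99.6 units over the arrays. Arrays of 1 pool correlated at 0.948 to 0.971 and arrays of different pools at 0.916 to 0.970.

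Across the 10 pools, the 3 immunoproteasome subunits were correlated. Pearson's r was 0.81 between Psmb8 and Psmb9, 0.86 between Psmb8 and Psmb10 and 0.82 between Psmb9 and Psmb10, and Tap1 had r of 0.74 to 0.85 with them. Cd74 had r of -0.03 to 0.21 with the other members. These are descriptions over pools that share the same diets and arrays, and no test was made. Among 7048 genes outside the 7, those most like Psmb8 were Snx3, a sorting nexin (r = 0.92), Med29 (0.87) and Psen2 (0.87). Most like Psmb9 were Pdk1, a kinase that inhibits pyruvate dehydrogenase (0.93), Nme2 (0.93) and Slc17a3 (0.92), and most like Psmb10 were Mrpl19, Kctd2 and Mid1ip1 (0.90, 0.89 and 0.87).

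Tap1 was matched most closely by Vps53 (0.95), Wars1 (0.92), the cytosolic tryptophan tRNA synthetase, and Fam149b1 (0.91), and Tap2 by Acsf3 (0.91), Igsf11 (0.89) and Bmyc (0.89). For B2m the nearest were LOC102547700 (0.95), Mrpl46 (0.93) and Slc15a4 (0.89), and for Cd74 Lrrc42 (0.93), Mrpl44 (0.88) and Phkg2 (0.88).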

How the data were processed

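Liver RNA of 10 pools was measured on 20 arrays. Each deposited intensity is a linear MAS5 signal of 1 probe set, per the submitters' processing notes, with version and scaling target not given in the sources. The 32 zeros were replaced by that array's lowest positive signal, log2 was taken, arrays were quantile normalised, and 57 control probe sets were then removed. The 2 arrays of a pool, technical repeats, were averaged. Tests covered 9520 probe sets, those in the top 60% of mean log2 level, in R 4.3.3 with limma 3.58.1 (lmFit, eBayes with a trend), two-sided, at a threshold of 0.05 after Benjamini-Hochberg adjustment across the 9520. The number of pools, 1 per condition, limits the precision.

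The dose trend used percent restriction with duration, and the restriction step, levels, slopes by duration and duration had fits of their own. The fit was tested on simulated data. Genes were named from the platform annotation, by the brightest probe set with 1 gene. The text names all members, up to 4 called genes per list, a fixed set of pathway genes and the 3 genes most correlated with each member. Beyond this rule, some uncalled list genes are named. Members, lists and that rule were chosen with earlier results of these data known, and the promoter motifs after the sequences were seen.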

Additional observations from a re-analysis of the deposited data

How the results depend on the processing

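Each comparison was recomputed with other scalings, signal filters, variance models and RNA quality covariates, over 20 arrays, and without single pools or arrays. The dose trend and the 30% contrast, with 2 members lower, gave 0 with signals as deposited, median centring, no variance trend and either quality ratio. Leaving out a pool or the arrays of 1 number gave 0 to 2 members in the dose trend, 0 to 2 at 30%, and 0 to 1 in the step and at 20%. The upper 40% by signal gave 1 member at 20%. Numbers mark the repeat array of a pool. The 20-array fit, with the array number as a replicate block, takes the 2 technical arrays of a pool as separate values. It kept the 2 dose calls (Psmb8 limma adjusted p = 0.000201, Psmb9 0.00404), where it called 4.12% of all probe sets as lower. It also called 1 member in the step, at 10%, at 20% and in each slope by duration, where it called 3.92, 2.96, 4.16, 2.83 and 0.935% of all probe sets as lower. The cause of these changes was not tested. Alternatives for the Psmb5 and Psmb7 pairs and for the gene lists were chosen after seeing the data.

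By the rule of size, signals as deposited gave 1 member lower at 5% and 0 at 10 and 20% at 1 week, 0 lower at 10, 20 and 30% at 1 month, and higher members, 2 at 20% at 1 week and 2, 2 and 1 at 5, 10 and 20% at 1 month. Of all probe sets, signals as deposited gave 11.5, 2.16 and 2.77% lower at 5, 10 and 20% and 35.9% higher at 20% at 1 week. At 1 month they gave 3.56, 2.04 and 1.59% lower at 10, 20 and 30%, and 30.3, 28.9 and 32.4% higher at 5, 10 and 20%. Median centring gave 1 lower at 5% and 0 at 20% at 1 week, and 1 higher at 5% and 1 lower at 10 and at 20% at 1 month. Of all probe sets it gave 13.1 and 8.42% lower at 5 and 20% at 1 week. At 1 month it gave 19% higher at 5%, and 7.1 and 7.05% lower at 10 and 20%.

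Some directions turned. With signals as deposited, which moved the median of all probe sets to 0.11 in the dose trend, 0.25 in the step and 0.10 at 30%, B2m came to 0.038 in the dose trend, 0.11 in the step and 0.013 at 30%, Psmb10 to 0.076 in the step and Psmb7 to 0.029. Without single pools or the arrays of 1 number, B2m at 30% ran from -0.21 to 0.0036, Psmb7 from -0.096 to 0.011, Cd74 from -0.017 to 0.14 in the dose trend and from -0.044 to 0.15 at 30%, and the difference of Psmb9 slopes from -0.56 to 0.27. Cd74 at 30% came to -0.0044 (median centring), -0.025 (GAPDH) and -0.048 (actin), and in the dose trend to -0.0064 (GAPDH). The second Tap1 probe set gave 0.20, at a signal too low for the filter. Psmb8 and Psmb9 kept their direction in the dose trend and at 30% in all 21 alternatives each.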
